A study of Homo sapiens with 6 samples.

Results

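The expression table of OVCAR3 cells listed 458 expressed loci that carried no gene symbol, overlapped no locus with a symbol, and lay at most 10000 nt from one. OVCAR3 is a human cell line of high-grade serous ovarian adenocarcinoma. Its poly(A) RNA was sequenced in 3 libraries from cells given the vehicle DMSO and in 3 libraries from cells given 200 nM THZ531, in both groups for 6 h. THZ531 binds covalently to CDK12 and CDK13, kinases that phosphorylate the C-terminal domain of RNA polymerase II while it elongates. One field of the submitters' labels names THZ1, another CDK inhibitor, at the same dose, whereas the titles, the descriptions and the series design name THZ531, by which the group is called here. All 6 libraries came from a single cell line, and the design describes the 3 libraries of a group as biological repeats.

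The loci were selected by position and by level, and no fold change entered the choice. A locus counted as expressed when its normalized count, the read count divided by a size factor for the library, reached 10 in 3 or more of the 6 libraries. The 458 near loci were part of 2290 expressed loci without a symbol, of 17568 expressed loci of any kind, and of 47577 loci in all. The position rule alone held for 4132 loci, so most of them were below the minimum. The locus with a symbol nearest to a near locus is called its neighbor here. There were 442 distinct neighbors, 16 of which had 2 near loci each. The near loci farthest from their neighbors were those of MIR1273C at 9575 nt, UHRF1BP1L at 9510 nt and CYP2D6 at 9384 nt. Just outside the limit were loci near MIRLET7I at 10055 nt, LOC105374297 at 10063 nt and CWF19L2 at 10074 nt. At the level limit, near loci of ASAH2B, SETBP1 and TBCB passed with a third-highest value of 10.08, and near loci of RHEBL1, DTNB and RPL26L1 stayed below it with 9.57.

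RNA polymerase II usually continues past the poly(A) site of a gene before it lets go of the template, so RNA from the strand of a gene can arise beyond its annotated end. At many promoters it also starts in both directions, and the transcript that leads away from the gene is often short, ends at an early poly(A) site and is degraded by the nuclear exosome. Other unnamed loci are long noncoding RNAs, pseudogenes or stretches of a gene that one annotation includes and another leaves out. For this reason the near loci were sorted by where they lay against the neighbor. There were 183 downstream of the neighbor on the same strand, 169 upstream on the opposite strand (divergent), 38 upstream on the same strand and 35 downstream on the opposite strand. For the other 33, the strand of the locus or of its neighbor could not be determined. The table gives no strand, which was read from the order of its identifiers; of 23119 loci with a symbol whose own strand was hidden, this gave the GENCODE strand for 22926 (99.2%).

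The ends of 3 of the downstream loci named below are shown because they differ in whether they carry AATAAA, the common poly(A) signal. Each is the last 50 nt of the locus in hg38, 5′ to 3′ on its own strand, and capitals mark AATAAA. The coordinates of the loci follow with their values.
GRAMD2B: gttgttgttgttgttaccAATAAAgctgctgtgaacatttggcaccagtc
ABHD17A: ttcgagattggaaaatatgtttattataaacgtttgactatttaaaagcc
CRIP2: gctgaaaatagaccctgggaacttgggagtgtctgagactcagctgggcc
Of these, the locus near GRAMD2B held AATAAA and the other two did not. Searched on the strand of the locus only, AATAAA was found in the last 50 nt of 79 of 180 downstream same-strand loci (43.9%), in 37.8% of all 426 near loci of sufficient length and known strand, and in 56.8% of all 17276 expressed loci. At least 12 A within the next 20 nt of genome were found after 27.3% of downstream same-strand loci, 30.4% of near loci and 9.22% of all expressed loci. By these counts, which were not tested, the share of near loci with AATAAA at the end was below that of all expressed loci and the share followed by A-rich genome was above it. Most expressed loci, 15186 of the 17276, carried a symbol, and of these 60.9% held AATAAA and 4.39% were followed by A-rich genome. The other loci without a symbol were not counted apart, so neither share can be called particular to near loci. The downstream same-strand loci that fell (44.1%) and those that rose (38.9%) held AATAAA at shares close to that of their whole group.

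The starts of 4 divergent loci are shown for the letters around the first annotated base, in hg38 and on the strand of the locus. Lower case is the 90 nt before the locus and capitals are its first 60 nt.
RAB17: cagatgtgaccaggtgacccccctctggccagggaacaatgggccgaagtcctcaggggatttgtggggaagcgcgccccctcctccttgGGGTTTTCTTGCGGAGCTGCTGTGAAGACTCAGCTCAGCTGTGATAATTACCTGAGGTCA
SEPTIN11: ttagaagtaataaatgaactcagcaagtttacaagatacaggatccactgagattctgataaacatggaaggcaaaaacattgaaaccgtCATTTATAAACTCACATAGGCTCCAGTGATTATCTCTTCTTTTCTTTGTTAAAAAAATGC
CIPC: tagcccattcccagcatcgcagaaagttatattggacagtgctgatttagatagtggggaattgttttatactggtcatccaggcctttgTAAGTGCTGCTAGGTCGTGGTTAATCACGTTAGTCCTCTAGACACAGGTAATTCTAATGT
LINC00963: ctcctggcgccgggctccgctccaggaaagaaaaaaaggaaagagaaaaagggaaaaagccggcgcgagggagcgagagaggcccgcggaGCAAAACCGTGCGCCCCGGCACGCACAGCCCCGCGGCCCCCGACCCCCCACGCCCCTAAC
The RAB17 window is at chr2:237594937-237595086, plus strand, and held 4 CG dinucleotides. The SEPTIN11 window at chr4:76944659-76944808, minus strand, held 1, and the CIPC window at chr14:77097098-77097247, minus strand, held 3. The LINC00963 window at chr9:129482479-129482628, minus strand, held 17, the most of the 4. Over the 157 distinct expressed neighbors of divergent loci, the 250 nt before the start of the neighbor held a median of 25 CG (quartiles 18 and 30). Before all 15186 expressed loci with a symbol and a known strand the median was 18 (quartiles 9 and 26). AATAAA occurred in the first 1000 nt of 32.9% of divergent loci and of 38.6% of downstream same-strand loci. It occurred in 20.9% of all expressed loci, most of which carried a symbol, and in 19% of those with a symbol. The splice donor string GTAAGT occurred in 11.8% of divergent loci, 15.2% of downstream same-strand loci and 15.6% of all expressed loci.

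The 6 libraries held 53054048 to 70986130 counted reads, and size factors were 1.08 to 1.26 for DMSO and 0.794 to 0.88 for THZ531. All 11 markers of serous ovarian epithelium were expressed, and 2 of them, the transcription factor PAX8 and the cadherin CDH6, fell. The summed level of all 11 was 465105 to 476431 in DMSO and 564614 to 578259 in THZ531. The keratin gene KRT8 alone averaged 153783 in DMSO and 230529 in THZ531. Markers of other cells summed to 1657 to 1911 in DMSO and 3176 to 3517 in THZ531 for 4 fibroblast genes, 410 to 496 and 406 to 490 for 4 immune genes, of which 1 (CD3E) was at 0, and 162 to 199 and 213 to 299 for 3 endothelial genes. Their part in the results was not tested. In bulk RNA, fewer cells with a transcript and less of it in each cell cannot be told apart.

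Near loci fell more often than they rose. Changes were tested with limma on log2(normalized count + 1) over all 17568 expressed loci, and a locus was called when it changed at least 1.5-fold with an unadjusted p of at most 0.05, the thresholds of the study. Of all expressed loci 39.5% were called, 15.7% higher and 23.9% lower in THZ531. Of the 458 near loci 82 were higher (17.9%) and 173 were lower (37.8%), and 246 of these 255 also had a Benjamini-Hochberg adjusted p of at most 0.05. The median log2 fold change was -0.38 for near loci, with quartiles of -1.33 and 0.46, and -0.01 for all expressed loci. The median value of the near loci was 41.3, 45.5 and 44.7 in the DMSO libraries and 32.7, 29.6 and 28.4 in the THZ531 libraries. With the size factors replaced by the level of RPL34, the reference gene of the study's own assays, the counts were 58 higher and 231 lower. Of all expressed loci 6.14% were then higher and 42.8% lower, and their median moved to -0.50. With libraries set to the same total it moved to -0.25. Among called loci, 67.8% of near loci and 60.4% of all expressed loci were lower with the size factors. With the RPL34 scaling these shares were 79.9% and 87.5%, so the near loci no longer had the larger one.

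**Figure D1:**
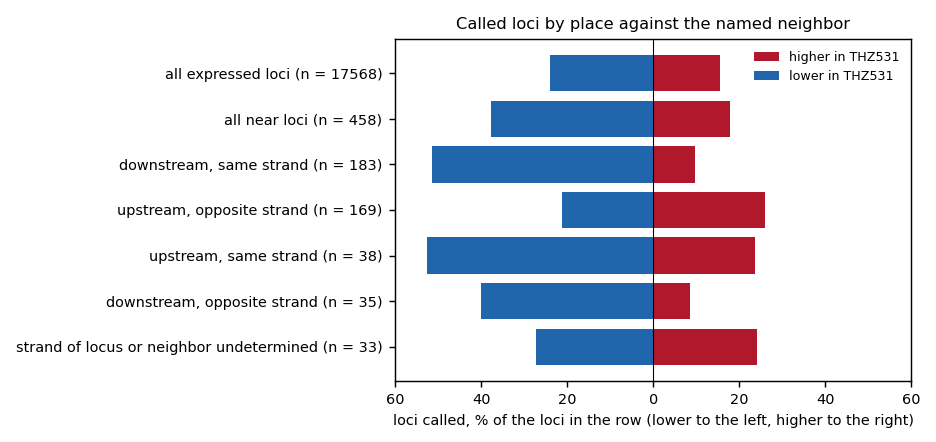
Share of loci called lower (left, blue) and higher (right, red) in THZ531 than in DMSO, in percent of the loci of each row, for all expressed loci, all near loci and the near loci by place. The downstream same-strand row reaches 51.4% lower and 9.84% higher, whereas the divergent row reaches 21.3% lower and 26.0% higher.

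The neighbors of the same loci were called about as often as expressed loci at large. Of the 428 neighbors that were themselves expressed, counted once for each near locus, 75 rose and 85 fell, with a median log2 fold change of 0.09, beside the 15.7% higher and 23.9% lower of all expressed loci. Near locus and neighbor both fell in 36 pairs and both rose in 18. The locus fell while the neighbor rose in 23 pairs, and rose while the neighbor fell in 16. In 99 further pairs only the locus passed the test and fell, and in 46 only the locus passed and rose. Only the neighbor passed and rose in 34 pairs, only the neighbor passed and fell in 33, and neither passed in 123. Of the 30 near loci whose neighbor was below the minimum 2 rose and 15 fell. Across the 428 pairs Pearson's r of the fold changes was 0.16 and Spearman's rho 0.19, a description over loci that share their libraries.

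To compare a locus with its neighbor directly, limma was run on the difference of their log2 values in each library, over all 2111 pairs of an expressed locus without a symbol and an expressed neighbor at any distance or overlap. Library scaling cancels in this difference except through the added 1, which matters for low values. Of the 2111 pairs 53.3% were called at the same thresholds, 32.4% with the locus gaining on its neighbor and 21% with it losing. Of the 428 near pairs 80 gained (18.7%) and 149 lost (34.8%), with a median difference of -0.37 on the log2 scale; 208 of these 229 had an adjusted p of at most 0.05. The near loci thus had the opposite balance to loci nested inside a gene, where 499 of 1307 pairs gained (38.2%) and 210 lost (16.1%). Loci more than 10000 nt from a gene gained in 20 of 101 pairs (19.8%) and lost in 37 (36.6%). These shares were compared as counts, without a test.

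**Figure D2:**
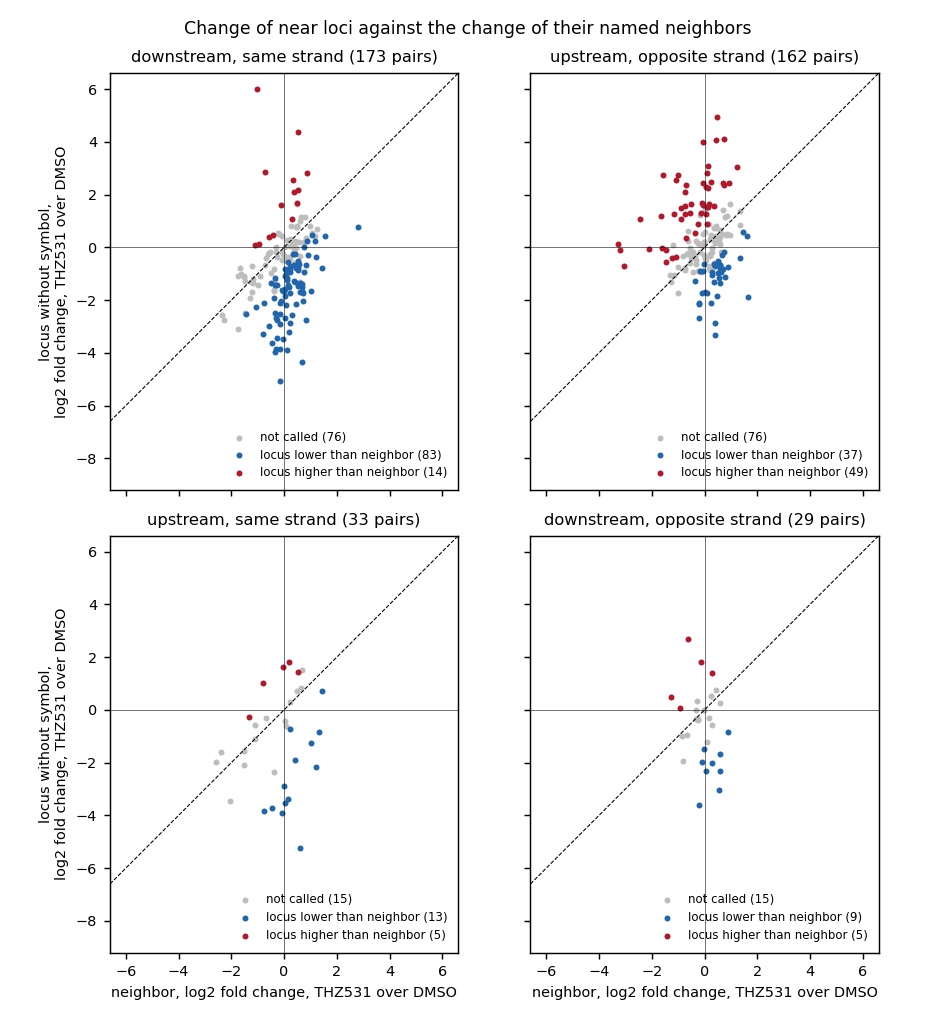
Log2 fold change (THZ531 over DMSO) of each near locus, vertical axis, against that of its named neighbor, horizontal axis, in 4 panels by place; color gives the test of the difference between locus and neighbor and the dashed line marks equal change. Downstream same-strand points lie mostly below the line (83 lower, 14 higher), and divergent points lie on both sides of it (37 lower, 49 higher).

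Loci downstream of a gene on its own strand fell. Of 183 such loci, 94 were lower (51.4%) and 18 were higher (9.84%), with a median log2 fold change of -0.83 and quartiles of -1.66 and 0.09. Their median value was 51.6, 56.6 and 55.9 in the DMSO libraries and 25.2, 27.3 and 26.2 in the THZ531 libraries. Of their 173 expressed neighbors 34 rose and 28 fell (median 0.12). The locus lost against its neighbor in 83 pairs (48.0%) and gained in 14 (8.09%), with a median difference of -0.79. Of all 2111 pairs 21% lost and 32.4% gained. The neighbor was not called in 56 of the pairs in which the locus fell. With the RPL34 scaling, 10 of these loci were higher and 117 lower, beside 6.14% and 42.8% of all expressed loci.

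The downstream locus near KLHL18, an adaptor of CUL3 ubiquitin ligases, spanned chr3:47347333-47349073 on the plus strand, 517 nt past the gene. Its normalized counts were 127, 152 and 146 in DMSO and 5.04, 2.27 and 15.9 in THZ531, whereas KLHL18 itself had 542, 638 and 582 in DMSO and 967, 976 and 907 in THZ531. The locus changed by -4.36 ± 0.48 (log2 fold change ± SE, adjusted p = 6.4e-07 by limma) and the gene by 0.69 ± 0.08. Neither the locus nor the gene had overlapping groups, and they moved in opposite directions. SHB encodes an adaptor protein with an SH2 domain. The locus 237 nt past it (chr9:37913055-37915661, minus strand, in no annotated exon) had 164, 186 and 191 in DMSO and 7.56, 9.09 and 17.1 in THZ531, a change of -3.96 ± 0.32 beside -0.35 ± 0.06 for SHB. The locus 2524 nt past GRAMD2B (chr5:126496888-126498604, plus strand) had 82.6, 93.7 and 124 in DMSO and 2.52, 15.9 and 4.55 in THZ531, a change of -3.85 ± 0.50 beside -0.30 ± 0.05 for the gene. All 3 loci were thus close to the minimum for expression after THZ531, while none of their genes fell past the fold threshold. These loci reached 10 in every DMSO library but not in every THZ531 library, which favored a decrease.

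TEAD4 is a TEA domain transcription factor that works with YAP. The locus 761 nt past its end, at chr12:3041437-3045724 on the plus strand and within a GENCODE long noncoding RNA, had the highest counts of these, with 1465, 1483 and 1499 in DMSO and 122, 140 and 134 in THZ531. TEAD4 had 2406, 2494 and 2485 in DMSO and 2305, 2250 and 2570 in THZ531, so that its groups overlapped. The locus changed by -3.48 ± 0.09 and TEAD4 by -0.05 ± 0.06, and the difference between them was -3.43 ± 0.15 (adjusted p = 6.6e-06 by limma). The fall of the locus was many times the spread between libraries.

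The 4 largest increases downstream, among called loci whose mean reached 50 and whose groups did not overlap, ran against this. The locus 216 nt past TRAF4, an adaptor of the TNF receptor associated factor family, lay at chr17:28751172-28752214 on the plus strand in no annotated exon. It had 0, 1.86 and 7.98 in DMSO and 189, 201 and 173 in THZ531, a change of 6.00 ± 0.59 that rests on few reads in DMSO. This locus passed the minimum only through the THZ531 libraries, which favored an increase. TRAF4 had 9969, 10138 and 9307 in DMSO and 4806, 4745 and 4853 in THZ531, a change of -1.03 ± 0.04, and the difference of 7.03 ± 0.71 (adjusted p = 0.00017 by limma) was the largest gain among near pairs past both thresholds with means of at least 50. The groups of the locus and of the gene did not overlap, and they moved in opposite directions. The locus 8484 nt past the noncoding RNA gene LINC00910 (chr17:43357520-43361361, minus strand) had 64.3, 55.7 and 55.1 in DMSO and 443, 500 and 352 in THZ531, a change of 2.85 ± 0.17, while LINC00910 changed by -0.72 ± 0.35 and passed no test. The locus 1661 nt past CRIP2, a LIM domain protein gene, lay at chr14:105481831-105483531 on the plus strand and had 22.2, 63.1 and 51.1 in DMSO and 179, 203 and 191 in THZ531, a change of 2.17 ± 0.30. The locus 641 nt past ABHD17A, a depalmitoylase gene, lay at chr19:1874883-1876169 on the minus strand and had 173, 121 and 119 in DMSO and 495, 416 and 392 in THZ531, a change of 1.67 ± 0.16. CRIP2 and ABHD17A themselves changed by 0.55 ± 0.05 and 0.48 ± 0.05, below the fold threshold, and their loci gained on them by 1.62 ± 0.39 and 1.18 ± 0.20.

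**Figure D3:**
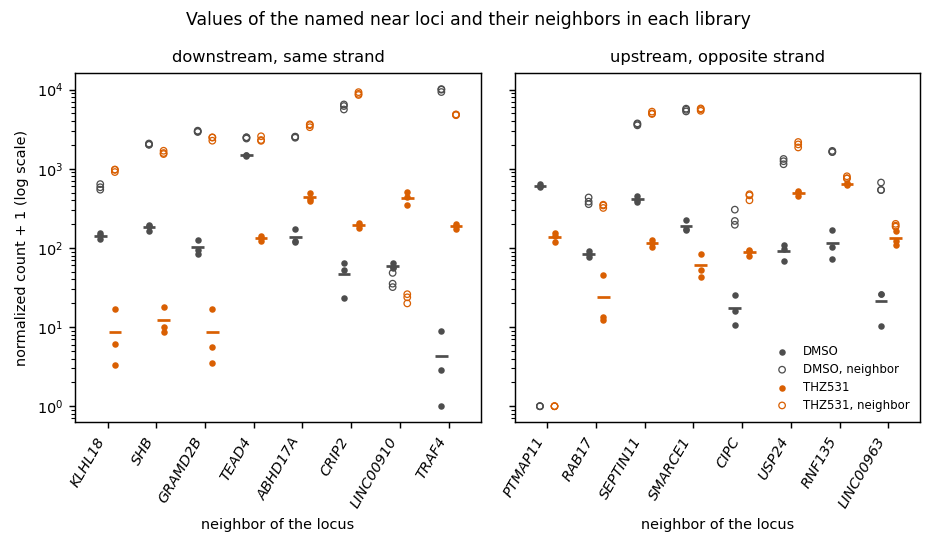
Normalized count + 1 on a log scale in each library for the 8 downstream same-strand loci (left) and the 8 divergent loci (right) with the largest changes among those with a mean of at least 50, filled for the locus and open for its neighbor, gray for DMSO and orange for THZ531; short lines are group means. The filled groups of each locus do not overlap, by the rule that chose them, while the open groups of TEAD4, SMARCE1 and PTMAP11 (at 0 throughout) do.

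Downstream decreases outnumbered increases at every distance. Within 500 nt of the gene 12 of 29 loci fell and 5 rose, above that and up to 2000 nt 27 of 58 fell and 6 rose, up to 5000 nt 39 of 56 fell and 3 rose, and up to 10000 nt 16 of 40 fell and 4 rose. The medians were -0.57, -0.60, -1.25 and -0.48 on the log2 scale. Of the 183 loci, 49 had at least 10 in every DMSO library but not in every THZ531 library, and 44 of them fell. Among the loci with at least 10 in all 6 libraries, 6 of 17 fell and 3 rose within 500 nt. In the farther ranges 16 of 35, 21 of 33 and 7 of 23 fell, and 5, 2 and 3 rose. Their medians were -0.40, -0.37, -0.88 and -0.23. Of all expressed loci 23.9% fell. By the length of the gene, 35 of 69 loci past genes of up to 20000 nt fell, 37 of 67 past genes of 20000 to 60000 nt, and 22 of 47 past longer genes. Of the genes themselves, 18 of the 61 expressed short ones fell and 5 rose, and 3 of the 46 expressed longest fell and 14 rose.

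GENCODE placed an exon of the neighbor itself on 24 of the downstream same-strand loci, so that another annotation counts them as part of that gene. Of these 24 loci 14 fell and 2 rose, and their fold changes had a Pearson's r of 0.63 with those of 23 expressed neighbors. In the other 159 loci 80 fell and 16 rose, the median was -0.83, and r was 0.21 over 150 pairs. Of the 80 loci in no exon on their strand 38 fell and 9 rose, and of the 55 in an exon of a long noncoding RNA 26 fell and 6 rose. The POMK and ZNF460 genes, a kinase of protein O-mannose and a zinc finger protein, each had a pair of loci downstream, of which the smaller ones, 28 and 31 nt long, passed no test. At POMK, the larger one (chr8:43126750-43130762, in an annotated POMK exon) had 2705, 3113 and 3135 in DMSO and 4186, 4240 and 3881 in THZ531, a change of 0.46 ± 0.06 that became -0.03 with the RPL34 scaling, while POMK rose by 1.07 ± 0.06. The larger one at ZNF460 (chr19:57302288-57307249) had 984, 1013 and 1008 in DMSO and 1142, 1289 and 1109 in THZ531, a change of 0.23 ± 0.07 that became -0.26 with the RPL34 scaling and -0.01 with equal totals, while ZNF460 rose by 1.16 ± 0.13. The differences between locus and gene were -0.61 ± 0.11 at POMK and -0.92 ± 0.19 at ZNF460, both past the thresholds. The POMK difference fell below the fold threshold without DMSO replicate 2 or 3 (-0.58 in both cases) and without THZ531 replicate 2 (-0.57).

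Divergent loci rose in somewhat more cases than they fell, by a margin that turned with the scaling and with the minimum for expression. Of 169 loci upstream of a gene on the opposite strand 44 rose (26.0%) and 36 fell (21.3%), beside 15.7% and 23.9% of all expressed loci, with a median log2 fold change of 0.06 and quartiles of -0.72 and 1.06. Their median value was 27, 29.7 and 29.5 in the DMSO libraries and 39, 38.6 and 31.9 in the THZ531 libraries. Of the 162 expressed neighbors 27 rose and 35 fell. The locus gained on its neighbor in 49 of the 162 pairs (30.2%) and lost in 37 (22.8%), with a median difference of 0.11. These shares were near the 32.4% and 21% of all 2111 pairs. The fold changes of locus and neighbor had a Pearson's r of 0.04 over the 162 pairs. Of the 44 divergent loci that rose, the neighbor rose in 10, fell in 11 and passed no test in 23. With the RPL34 scaling the balance turned, with 33 of the 169 divergent loci higher and 62 lower. All expressed loci were then 6.14% higher and 42.8% lower. With the size factors and a minimum of 50, 21 divergent loci were higher and 27 lower. Among divergent loci with at least 10 in all 6 libraries, 23 were higher and 27 lower.

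Divergent loci were also counted by distance. Within 500 nt of the start of the neighbor 31 of 102 divergent loci rose and 16 fell (median 0.26), and above that and up to 2000 nt 8 of 26 rose and 2 fell (median 0.31). Farther away and up to 5000 nt 3 of 26 rose and 11 fell (median -0.74), and up to 10000 nt 2 of 15 rose and 7 fell (median -0.70). Together, 39 of 128 within 2000 nt rose and 18 fell, and 5 of 41 farther away rose and 18 fell. Among the divergent loci above the minimum in all 6 libraries, 21 of 80 within 2000 nt rose and 14 fell (median 0.16), and 2 of 22 farther away rose and 13 fell (median -0.75). The difference between the ranges was not tested. The expressed neighbors of the 2 full sets had medians of 0.10 and -0.01. Of the 98 divergent loci in an exon of a GENCODE long noncoding RNA 25 rose and 21 fell, and of the 47 in no exon 17 rose and 10 fell.

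**Figure D4:**
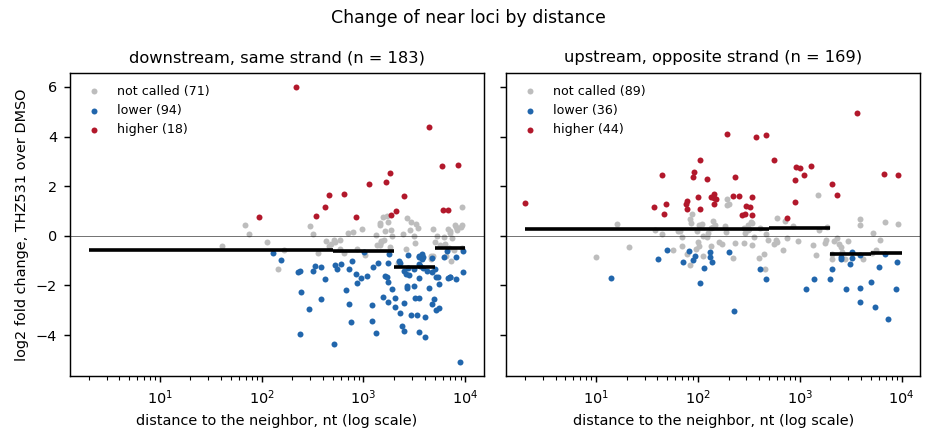
Log2 fold change (THZ531 over DMSO) of downstream same-strand loci (left) and divergent loci (right) against the distance to the neighbor in nt on a log scale; color gives the call and black lines are the medians of the 4 distance ranges. The medians on the left stay between -1.25 and -0.48, and those on the right go from 0.26 within 500 nt to -0.70 beyond 5000 nt.

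The next loci had the largest divergent increases among those whose mean reached 50 and whose groups did not overlap; other divergent loci with lower means rose more, up to 4.96 on the log2 scale. The one 44 nt from USP24, a deubiquitinase gene, lay at chr1:55215408-55217447 on the plus strand in no annotated exon. It had 68.3, 95.6 and 108 in DMSO and 501, 515 and 452 in THZ531, a change of 2.44 ± 0.17 (adjusted p = 2.2e-09 by limma), and USP24 rose too, by 0.71 ± 0.07. RNF135 encodes a ubiquitin ligase of the RIG-I pathway. The divergent locus 91 nt from it (chr17:30968886-30970893, minus strand) had 102, 72.4 and 169 in DMSO and 661, 622 and 642 in THZ531, while RNF135 had 1624, 1680 and 1630 in DMSO and 758, 751 and 802 in THZ531. The locus rose by 2.56 ± 0.21 and the gene fell by 1.09 on the log2 scale, so RNA on either side of this start moved in opposite directions. This locus overlapped 1 other row of the table without a symbol.

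The divergent locus 913 nt from the noncoding RNA gene LINC00963 (chr9:129480605-129482538, minus strand) showed the same contrast. It had 25.4, 9.28 and 25.5 in DMSO and 162, 122 and 109 in THZ531, a change of 2.75 ± 0.36, while LINC00963 went from 668, 537 and 538 to 200, 184 and 190, a change of -1.59 ± 0.12. The difference of 4.34 ± 0.43 had an adjusted p of 0.00015 by limma. CIPC encodes a repressor that binds CLOCK. Its divergent locus, 1101 nt away at chr14:77096393-77097157 on the minus strand, had 9.53, 24.1 and 15.2 in DMSO and 89.4, 77.3 and 94.4 in THZ531, a change of 2.43 ± 0.35 beside 0.92 ± 0.15 for CIPC. The difference of 1.52 ± 0.51 passed both thresholds. Without THZ531 replicate 3 it was 1.38 and lost its call on the unadjusted p by limma (0.0599). The loci at LINC00963 and CIPC reached 10 in every THZ531 library but not in every DMSO library.

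Under the same limits, the largest decreases among divergent loci lay both near and far. The locus 14 nt from SMARCE1, a subunit of the SWI/SNF remodeler, lay at chr17:40648522-40650573 on the plus strand within a long noncoding RNA. It had 165, 223 and 170 in DMSO and 83.1, 52.3 and 42.1 in THZ531, a change of -1.68 ± 0.24, while SMARCE1 changed by 0.02 ± 0.04. The locus 5010 nt from SEPTIN11, a septin gene, lay at chr4:76940279-76944718 on the minus strand and had 384, 453 and 405 in DMSO and 101, 126 and 115 in THZ531, a change of -1.86 ± 0.14 beside 0.48 ± 0.04 for SEPTIN11. At RAB17, a small GTPase gene, the locus annotated as the divergent transcript RAB17-DT (chr2:237595027-237595957, 3934 nt away) had 90.5, 82.6 and 75.8 in DMSO and 11.3, 12.5 and 44.4 in THZ531, a change of -2.09 ± 0.42 with THZ531 replicate 3 apart from the other libraries of its group. Among divergent loci whose mean reached 50 and whose groups did not overlap, the largest fall was at a locus whose nearest name was the pseudogene PTMAP11, listed at 0 in every library. It spanned chr9:96891578-96907930, overlapped an exon of MFSD14CP and 2 other rows, and had 595, 597 and 634 in DMSO and 118, 140 and 155 in THZ531, a change of -2.14 ± 0.13.

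Loci upstream of a gene on the same strand fell in 20 of 38 cases (52.6%) and rose in 9 (23.7%), with a median of -0.79. Of all expressed loci 23.9% fell and 15.7% rose. Among their 33 expressed neighbors 6 rose and 11 fell. The upstream locus lost in 13 pairs (39.4%) and gained in 5 (15.2%), beside 21% and 32.4% of all 2111 pairs. DBN1 encodes the actin-binding protein drebrin, and the locus 2998 nt before it (chr5:177476632-177479656, minus strand) had 314, 315 and 413 in DMSO and 22.7, 35.2 and 20.5 in THZ531, a change of -3.71 ± 0.23 beside -0.45 ± 0.05 for DBN1. The locus 785 nt before the zinc finger gene VEZF1 (chr17:57989039-57994850, minus strand) had 1069, 1108 and 1207 in DMSO and 123, 167 and 175 in THZ531, a change of -2.87 ± 0.13, while VEZF1 changed by 0.01 ± 0.04. In contrast, the loci before MC1R, the melanocortin receptor, and before the transporter gene SLC10A5 moved with their genes. The MC1R locus, in an annotated MC1R exon at chr16:89914117-89916474, changed by -2.10 ± 0.33 and MC1R by -1.51 ± 0.21, a difference of -0.59 ± 0.36 that passed no test. The SLC10A5 locus at chr8:81696368-81698694 changed by -1.98 ± 0.28 and the gene by -2.57 ± 0.38, a difference of 0.59 ± 0.45 that did not pass either.

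Upstream increases included loci next to CCND1 and ZFP36. The locus of 354 nt that ended 171 nt before CCND1, the cyclin D1 gene, lay at chr11:69640632-69640985 on the plus strand and had 54, 56.6 and 39.9 in DMSO and 139, 168 and 158 in THZ531, a change of 1.62 ± 0.22. CCND1 itself had 15370, 14984 and 14836 in DMSO and 14406, 14550 and 15048 in THZ531, a change of -0.04 ± 0.03, and its groups overlapped. The locus 293 nt before ZFP36, which encodes the mRNA decay factor tristetraprolin, lay at chr19:39402852-39406553 on the plus strand and overlapped 1 other row. It had 264, 285 and 227 in DMSO and 806, 986 and 947 in THZ531, a change of 1.82 ± 0.11 beside 0.18 ± 0.05 for ZFP36. The locus 1852 nt before ZC3H3, a zinc finger gene of poly(A) RNA processing, lay at chr8:143543299-143545139 and rose by 1.00 ± 0.27 while ZC3H3 fell by 0.81 on the log2 scale; with the RPL34 scaling the locus was at 0.52, below the threshold. The locus 8892 nt before the pseudogene KRT42P (chr17:41649091-41651513, minus strand) had 42.9, 34.3 and 31.9 in DMSO and 258, 267 and 249 in THZ531, a change of 2.80 ± 0.20, and its neighbor was below the minimum.

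Loci downstream on the opposite strand, which face the end of the neighbor, fell in 14 of 35 cases (40%) and rose in 3 (8.57%), with a median of -0.50. Of all expressed loci 23.9% fell and 15.7% rose. TAF8 is a subunit of the general factor TFIID. The locus 4777 nt past it (chr6:42092238-42094259, minus strand), in an annotated exon of C6orf132, had 159, 176 and 188 in DMSO and 8.82, 18.2 and 14.8 in THZ531, a change of -3.61 ± 0.30 beside -0.20 ± 0.07 for TAF8. The locus past CNOT8, a deadenylase gene, had 110, 80.7 and 91 in DMSO and 7.56, 11.4 and 13.7 in THZ531 at chr5:154879605-154882848, a change of -3.02 ± 0.34 beside 0.55 ± 0.08. The loci past PCNT, the pericentrin gene (chr21:46449337-46454161), and past CMTM6, a membrane protein that stabilizes PD-L1 (chr3:32474520-32475869), changed by -2.33 ± 0.20 and -1.68 ± 0.31, beside 0.59 ± 0.05 and 0.58 ± 0.04 for the genes. In these last 3 pairs the locus fell while the gene had a higher normalized count in each THZ531 library than in any DMSO library. The loci at TAF8 and CNOT8 reached 10 in every DMSO library but not in every THZ531 library, which favored a decrease. The one named increase was past SOX17, a transcription factor gene, at chr8:54465595-54467428, where the locus had 38.9, 43.6 and 25.5 in DMSO and 68, 122 and 105 in THZ531, a change of 1.41 ± 0.30.

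The 33 loci of undetermined place rose in 8 cases (24.2%) and fell in 9 (27.3%), beside 15.7% and 23.9% of all expressed loci. Of the 33, the one 487 nt from LINC01000, a noncoding RNA gene, showed the largest fall against a neighbor after the KLHL18 locus among pairs with means of at least 50. At chr7:128661485-128663479 it had 545, 588 and 580 in DMSO and 30.2, 15.9 and 29.6 in THZ531. It changed by -4.50 ± 0.23, while LINC01000 changed by -0.04 ± 0.05. The locus 7580 nt from NBPF20 (chr1:145413358-145422886), in an annotated exon of that gene, rose by 2.20 ± 0.13 while NBPF20 fell by 1.40 on the log2 scale; both belong to a multicopy family, so their reads may be shared among copies. A pair of loci near LOC102723534, the first divergent and the second of undetermined place (chr15:23307438-23310746 and chr15:23311273-23314564), changed by 0.46 ± 0.15 and 0.44 ± 0.10, which became -0.03 and -0.05 with the RPL34 scaling.

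The near loci with the highest means need their annotation to be read. The first, at chr9:133019419-133021165 near LOC105376306, is annotated as the pseudogene EEF1A1P5; how far its reads are shared with EEF1A1 or other copies was not tested. It had 269934 to 286141 in DMSO and 326859 to 347995 in THZ531, a change of 0.26 ± 0.04 that became -0.23 with the RPL34 scaling. The second, at chr11:65422798-65445599 near FRMD8, holds NEAT1, the noncoding scaffold RNA of paraspeckles, without its symbol. It had 40436, 50115 and 48544 in DMSO and 63531, 67537 and 59022 in THZ531, a change of 0.45 ± 0.06 that became -0.04 with the RPL34 scaling, while FRMD8 changed by -0.41 ± 0.07. The third, at chr21:8242737-8247445 near MIR663A, had 4375 to 5453 in DMSO and 19509 to 22644 in THZ531, a change of 2.06 ± 0.07. MIR663A itself rose more, from a mean of 20.3 to 311, a change of 3.90 ± 0.23. The difference of -1.84 ± 0.22 between locus and neighbor passed both thresholds. This locus lies in a multicopy region and its reads may come from other copies. Leaving such cases aside, near loci were weakly expressed, with a median over the 6 libraries of 39.1 and a median length of 2344 nt.

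Because a locus could enter through either group, the calls were also split by how it passed the minimum. Of the 268 near loci with at least 10 in all 6 libraries 48 rose and 97 fell, with a median of -0.29. The 99 loci with at least 10 in every DMSO library but not in every THZ531 library were favored to lean down by this split, and 76 of them fell. The 53 that passed in every THZ531 library but not in every DMSO library were favored to lean up, and 34 rose. Restricted to loci above the minimum in all 6 libraries, 50 of 108 downstream same-strand loci fell and 13 rose (median -0.55), and 27 of 102 divergent loci fell and 23 rose (median -0.10). Over all distances divergent increases thus did not outnumber divergent decreases among loci above the minimum throughout, whereas downstream decreases still outnumbered downstream increases.

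The shares of the other loci without a symbol are given for comparison, without a test. Of 1355 nested loci 38.9% rose and 21.3% fell (median 0.38), of 311 partly overlapping loci 26.0% rose and 19.9% fell (median 0.17), and of 151 loci farther than 10000 nt from a gene 14.6% rose and 37.1% fell (median -0.27). The 15278 expressed loci with a symbol rose in 13.3% and fell in 23.7% of cases. Without the 38 near loci that overlapped another row and those whose neighbor carried several symbols, 414 remained, of which 75 rose and 151 fell.

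The genes that make RNA ends and remove unstable nuclear RNA were read beside these loci from a list of 39, all expressed: 4 rose and 10 fell, with a median of 0.10. These shares are near the 15.7% and 23.9% of all expressed loci, so the list as a group did not stand out, and its members are given as background only. The cleavage stimulation factor genes CSTF3 (3060 ± 59.5 in DMSO and 970 ± 80 in THZ531, mean ± SD, n = 3) and CSTF2T (3450 ± 60.2 and 1594 ± 139) fell, with log2 fold changes of -1.66 and -1.12. The poly(A) specificity factor genes CPSF2, CPSF3 and CPSF4 had log2 fold changes of -1.03, -0.60 and -1.26, and the exosome subunit genes EXOSC2, EXOSC3 and EXOSC4 of -1.31, -0.94 and -0.77. RBBP6 and CPSF7 were the other decreases. XRN2, the nuclear exonuclease that degrades RNA past a cleaved poly(A) site, rose by 0.66 on the log2 scale, and SCAF8, PAPOLG and CLP1 rose as well. Whether these changes bear on the near loci was not tested.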

How the data were processed

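Poly(A) RNA of OVCAR3 cells was sequenced in 3 DMSO and 3 THZ531 libraries prepared with a stranded mRNA kit. Per the labels and the study's methods, the authors used STAR for alignment to hg38 and featureCounts for counting over the loci of FAST DB (version of 2021), and divided the counts by DESeq2 size factors; the deposited values are this signal per locus, not raw counts. The submitters' processing notes name STAR 2.7.5a, and the methods of the study another version. The strand setting of the counting is not given in the sources used here, so reads from overlapping antisense RNA cannot be told apart. The smallest step between values returned the size factor of each library, and 100% of the values were whole multiples of it within 0.01 of a step. Values of 1 to 50 reads were even in 62.2 to 63.9% of cases, as would follow if the mates of a fragment were often counted separately, so a value of 10 may stand for fewer than 10 fragments and edgeR and DESeq2 on these reads may count a fragment more than once.

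Loci that reached 10 in 3 or more libraries were kept, and limma 3.58.1 (R 4.3.3) with a variance trend was run on log2(value + 1), so that fold changes of low loci are understated. The same test was run on the difference between each locus without a symbol and its nearest locus with one. The self-written steps were tested on simulated data. Strands came from GENCODE 44 loci next to each locus in identifier order, within 40 identifiers and 5 Mb. Correlations across loci are given without a p. Alternatives were edgeR 4.0.16 and DESeq2 1.42.0 on the recovered reads, other scalings, minimums, pseudocounts (0.1 and 10), distances and fold thresholds, a fit with a replicate block, and leaving out each library. Sequence was read from hg38; that of some named loci is not reported here. Named were the 4 largest called increases and decreases of each of 4 places, where the mean reached 50 and DMSO and THZ531 values did not overlap, and, where locus and neighbor both reached a mean of 50, the 4 largest gains and losses against the neighbor; the 3 highest means; the 3 neighbors with the most near loci, ties broken by summed mean; and the loci at the limits of the rule. Loci next to the genes studied in detail by the authors would have been named too, but none was a neighbor. Same-numbered libraries did not deviate together (correlations 0.002, 0.019 and -0.039), so they share only a number. The loci, lists and comparisons were chosen with earlier results of these data known.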

Additional observations from a re-analysis of the deposited data

How the results depend on the processing

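Of the 14 counts in the text, each was recomputed under up to 23 alternatives: 244 of the values stayed within 1.5 times the reported one and 36 moved further, by construction with fewer or more loci tested for the minimum and the distance. With a minimum of 50 there were 148 called near loci (48 higher, 100 lower), 51 downstream same-strand decreases, and 21 divergent increases beside 27 divergent decreases. Called pairs were then 119, with 37 gains and 82 losses. Of these, 9 gains and 45 losses were downstream, and 19 gains and 22 losses were divergent. Without a minimum, among the 1311 near loci not at 0 throughout, there were 411 (136 and 275), 28 downstream increases, 69 divergent increases and 463 called pairs (187 and 276; 44 and 140 downstream, 89 divergent gains). Within 2000 nt there were 134 called (74 lower), 11 downstream increases and 39 decreases, 18 divergent decreases and 125 called pairs (67 losses; 8 and 35 downstream, 23 divergent losses). With the RPL34 scaling, which shifted THZ531 against DMSO by -0.493 on the log2 scale, downstream increases were 10 and divergent decreases 62. What sets this shift was not tested. With a fold threshold of 2 divergent decreases were 22, by construction no more than at 1.5. Leaving out each library in turn gave 244 to 257 called near loci (78 to 87 higher, 160 to 178 lower), 16 to 19 and 85 to 99 downstream, 41 to 46 and 34 to 40 divergent, and 212 to 220 called pairs (73 to 80 gains, 136 to 144 losses; 11 to 14 and 74 to 82 downstream, 45 to 50 and 34 to 35 divergent). With the replicate block, on libraries that share only a number, 255 near loci (85 higher, 170 lower) and 226 pairs were called; of the 3 numbers, only the libraries numbered 2 correlated best with each other. edgeR called 257, 252 of them shared with limma in the same direction, and DESeq2 called 248, 246 of them shared. Of 1494 values for single loci, 1476 kept direction and side of the threshold, 8 lost their call, 2 gained one and 8 reversed, none of them called. With the RPL34 scaling the loci near FRMD8, LOC105376306, POMK (the larger), ZNF460 (the larger) and LOC102723534 turned to -0.0385, -0.23, -0.032, -0.26, and -0.0349 and -0.0501; with equal totals that near ZNF460 turned to -0.0094; the difference at LOC105376306 ran from -0.67 without DMSO replicate 2 to 0.33 without DMSO replicate 3. Depth limits loci near 10, where a single fragment moves the fold change.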
